A study of Mus musculus with 20 samples.

Results

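The 10 genes described here mark the mural cells of blood vessels, that is, pericytes and vascular smooth muscle cells. Pericyte genes were Pdgfrb, Rgs5, Anpep, Vtn, Kcnj8, Abcc9 and Higd1b, and contractile genes of smooth muscle were Acta2, Tagln and Myh11. Each was read from the probe set annotated to that symbol alone with the highest mean over all 20 arrays. They are 10 of 19937 genes represented in this way, and each had 1 such probe set. The arrays measured total RNA of whole brain hemispheres of 10 C57/Bl6 mice, described by the labels as adult. All mice had been sensitised with LPS, a bacterial endotoxin, and subjected to hypoxia-ischemia, which injured the left hemisphere. In 5 mice the group label adds the peptide IDR1018, and in the other 5 it does not. The 4 groups of 5 arrays were therefore injured left without peptide, uninjured right without peptide, injured left with IDR1018 and uninjured right with IDR1018. The right hemisphere shares the LPS and the hypoxia with the left, and no group without LPS or without hypoxia-ischemia was analysed here. Dose, sex and the interval between injury and sampling are not given in the sources used here. Array numbers 1 to 10 all belong to left and 11 to 20 all to right hemispheres, so the order of the arrays cannot be told apart from the side of the brain.

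Pericytes sit on brain capillaries within the basement membrane that they share with the endothelium. Endothelial cells release PDGF-BB, which binds PDGF receptor beta (Pdgfrb) on pericytes, and this signal recruits and keeps pericytes on the vessel. Smooth muscle cells form rings around arterioles and contract through smooth muscle actin and myosin, and an ATP-sensitive potassium channel built from Kcnj8 and Abcc9 links the metabolic state of mural cells to their membrane potential.

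Per the submitters' notes, the deposited values are log2 summaries after RMA, the standard background correction, quantile normalisation and summarisation for these arrays. Array medians lay between 8.20 and 8.23, and correlations between arrays across probe sets between 0.994 and 0.998. The median of control probe sets, used here as a mark for low signal, lay between 6.68 and 7.01. It ranged from 6.70 to 6.86 on the left and from 6.74 to 7.01 on the right without peptide, and from 6.68 to 6.86 and 6.79 to 6.93 with IDR1018. The unpaired fit called Pdgfrb and Myh11 without peptide and Pdgfrb and Anpep with IDR1018 between hemispheres. These calls were kept with that median as a covariate, which was not combined with pairing by mouse. Of the members, 9 were above that median on 20 of 20 arrays. Higd1b, a pericyte-enriched gene of the hypoxia-inducible domain family, was above it on 1 of 20 arrays, so its values carry little information. Levels of different probe sets are not compared with each other. Left and right arrays with the same replicate number came from the same mouse.

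Pdgfrb was lower in the injured hemisphere with and without the peptide, by 1.18-fold and 1.16-fold. Anpep and Myh11 also had lower means on the left in both treatments, with a call in 1 of the comparisons each. The called differences were -0.30 log2 for Anpep with IDR1018 and -0.15 log2 for Myh11 without peptide. No member was called higher. A fit that pairs the hemispheres of each mouse called 5 members without peptide in place of 2. It added Anpep and Acta2 as lower and Tagln as higher (limma adjusted p = 0.0440). With IDR1018 it called the same 2. Of 28187 probe sets, this paired fit called 2499 higher and 2279 lower without peptide. With IDR1018 it called 1868 higher and 1515 lower. Calls were made with limma at an adjusted p below 0.05, with Benjamini-Hochberg adjustment over 28187 probe sets. Without peptide, the unpaired fit called 2 of 10 members lower and 0 higher. Of all tested probe sets it called 8.84% lower, 9.21% higher and 18.1% in either direction. With IDR1018, 2 of 10 members were again called lower and 0 higher, against 7.07% and 7.77% of probe sets, and 14.8% in either direction. An unadjusted limma p below 0.05 was reached by 6 of 10 members in each treatment, against 31.3% of probe sets without peptide and 28.7% with IDR1018. The median difference of the 10 members, left minus right, was -0.10 log2 without peptide and -0.12 with IDR1018. Medians over all genes were -0.01 and -0.02. In whole tissue, fewer cells of a type and less RNA per cell cannot be told apart.

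Pdgfrb encodes the receptor through which pericytes respond to PDGF-BB. Without peptide, its log2 values for replicates 1 to 5 were 9.73, 9.83, 9.79, 9.74 and 9.83 in the left hemisphere and 9.89, 10.04, 10.07, 10.01 and 10.00 in the right. All left values lay below all right values, a separation seen in this direction for 7.72% of probe sets. The group means were 9.78 ± 0.05 (SD, n = 5) on the left and 10.00 ± 0.07 (SD, n = 5) on the right. The difference was -0.22 ± 0.04 log2 (SE; 95% confidence interval -0.31 to -0.13; limma adjusted p = 0.00393), and the left was lower in 5 of 5 mice. It stayed called in 21 of 21 alternative settings.

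With IDR1018, left Pdgfrb values were 9.67, 9.65, 9.69, 9.80 and 9.91, and right values were 10.06, 9.96, 10.01, 10.01 and 9.90. The left was lower in 4 of 5 mice, and replicate 5, with a difference of 0.01, made the groups overlap. With IDR1018 no member had all left values below all right values, against 6.51% of probe sets. The difference was -0.24 ± 0.05 log2 (SE; 95% confidence interval -0.36 to -0.13; limma adjusted p = 0.0101). The call was lost when both arrays of replicate 1 (-0.21, adjusted p = 0.0564) or of replicate 3 (-0.23, adjusted p = 0.0530) were left out.

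**Figure D1:**
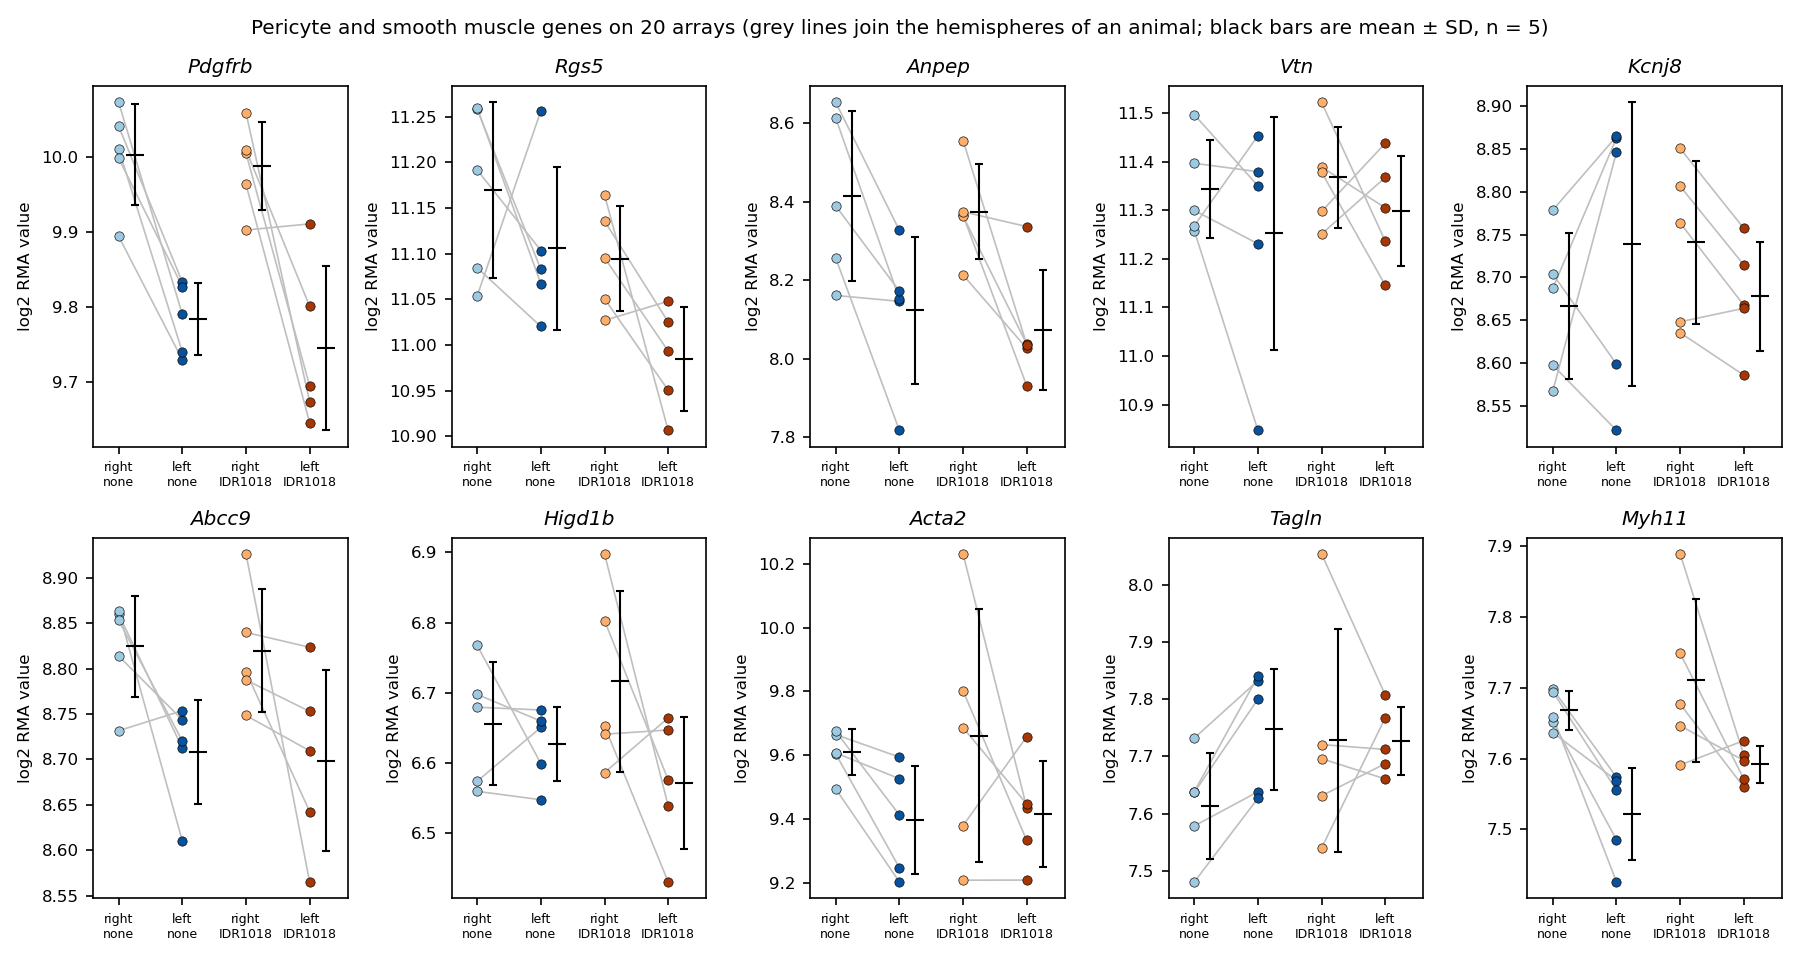
Deposited log2 RMA values (vertical axes, each with its own range) of the 10 members in the uninjured right and injured left hemisphere without peptide (none) and with IDR1018. Points are single arrays, grey lines join the hemispheres of 1 mouse, and black bars are the mean ± SD of 5 arrays. For Pdgfrb and Myh11 without peptide, every left value lies below every right value.

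Anpep encodes aminopeptidase N (CD13), a surface peptidase of brain pericytes. Without peptide its left values were 7.82, 8.33, 8.15, 8.15 and 8.17 and its right values 8.26, 8.65, 8.16, 8.61 and 8.39. The groups overlapped, although the left was lower in 5 of 5 mice. The difference was -0.29 ± 0.11 log2 (SE; 95% confidence interval -0.53 to -0.06; limma adjusted p = 0.0846) and was not called. With the mouse as a replicate block the limma adjusted p was 0.0250, and the direction was the same. It was also called with all 4 groups in the fit (adjusted p = 0.0432) and without right replicate 3 (adjusted p = 0.0406).

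With IDR1018, Anpep values were 7.93, 8.03, 8.04, 8.04 and 8.34 on the left and 8.37, 8.21, 8.36, 8.56 and 8.37 on the right. Replicate 5 was the highest left array and reached into the range of the right. Anpep fell by 0.30 ± 0.08 log2 (SE; 95% confidence interval of left minus right -0.47 to -0.13; limma adjusted p = 0.0216), 1.23-fold, and was lower in 5 of 5 mice. That call ended without left replicate 2 (adjusted p = 0.0524) and without both arrays of replicate 1 (0.0818), replicate 3 (0.0776) or replicate 4 (0.0938).

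Rgs5, a regulator of G-protein signalling and a widely used pericyte marker, was not called between hemispheres. Without peptide its left values were 11.02, 11.08, 11.26, 11.07 and 11.10 and its right values 11.08, 11.26, 11.05, 11.26 and 11.19, and the difference was -0.06 ± 0.06 log2 (SE; limma adjusted p = 0.484). With IDR1018 the left values were 10.95, 10.99, 10.91, 11.03 and 11.05 and the right values 11.05, 11.10, 11.16, 11.14 and 11.03. The left was lower in 4 of 5 mice in both treatments. The difference with IDR1018 was -0.11 ± 0.04 log2 (SE; limma adjusted p = 0.0935), and limma with trend and robust moderation gave an adjusted p of 0.0488.

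Vtn encodes vitronectin, an adhesive matrix protein that brain pericytes secrete. Its left minus right difference was -0.09 ± 0.10 log2 (SE; limma adjusted p = 0.585) without peptide and -0.07 ± 0.06 (SE; adjusted p = 0.519) with IDR1018. Left values without peptide spanned 10.85 to 11.45, with replicate 1 the lowest, and right values spanned 11.26 to 11.50. Without that left array the difference was 0.0098. The spread on the left, an SD of 0.24, was larger than the difference, and the left was lower in 4 of 5 mice without peptide and in 3 of 5 with it.

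Kcnj8 and Abcc9 encode the pore (Kir6.1) and the sulfonylurea receptor (SUR2) of the mural potassium channel and are neighbours in the genome, with no gene listed between their starts in the RefSeq table of assembly GRCm38.p6. Abcc9 values without peptide were 8.74, 8.71, 8.75, 8.61 and 8.72 on the left and 8.81, 8.86, 8.73, 8.86 and 8.85 on the right. Right replicate 3 was the only right array within the range of the left. The difference was -0.12 ± 0.04 log2 (SE; 95% confidence interval -0.20 to -0.03; limma adjusted p = 0.0671). It was called without right replicate 3 (adjusted p = 0.0330), without both arrays of that mouse (0.0384), after median centring (0.0354) and when dim probe sets were left out (0.0424). With IDR1018 the Abcc9 difference was -0.12 ± 0.05 (SE; limma adjusted p = 0.148), and the left was lower in 5 of 5 mice.

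The Kcnj8 difference was 0.07 ± 0.07 log2 (SE; limma adjusted p = 0.558) without peptide, with the left lower in 2 of 5 mice, and -0.06 ± 0.05 (SE; adjusted p = 0.460) with IDR1018, with the left lower in 4 of 5. With the control probe set median as a covariate, the difference without peptide was -0.015. Left values without peptide fell into a range from 8.52 to 8.86, and right values from 8.57 to 8.78. After subtraction of group means, Kcnj8 and Abcc9 correlated with r = 0.16 over the 20 arrays. The other channel of this type, Kcnj11 with Abcc8, known from neurons and endocrine cells, had 0 of 2 genes called: Abcc8 differed by -0.12 ± 0.04 (SE; limma adjusted p = 0.0659) without peptide.

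Higd1b, near the control level, differed by -0.03 ± 0.05 log2 (SE; limma adjusted p = 0.727) without peptide and by -0.14 ± 0.06 (SE; adjusted p = 0.164) with IDR1018.

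Of the contractile members, Acta2 and Myh11 had lower means on the left in both treatments, whereas the Tagln mean was higher on the left without peptide and nearly equal with IDR1018. Acta2 encodes smooth muscle alpha-actin, Myh11 the smooth muscle myosin heavy chain, and Tagln transgelin (SM22), an actin-binding protein. All are known targets of serum response factor, which with its partner myocardin binds the CArG box.

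The 250 bases before the RefSeq start of Acta2 are printed 5′ to 3′ in the gene's direction (GRCm38.p6, chr19:34255374-34255623, minus strand). Capitals mark the stretches that match a CArG box, CCNNNNNNGG, with A or T at the 6 central positions apart from at most 1 G or C.
Acta2 promoter: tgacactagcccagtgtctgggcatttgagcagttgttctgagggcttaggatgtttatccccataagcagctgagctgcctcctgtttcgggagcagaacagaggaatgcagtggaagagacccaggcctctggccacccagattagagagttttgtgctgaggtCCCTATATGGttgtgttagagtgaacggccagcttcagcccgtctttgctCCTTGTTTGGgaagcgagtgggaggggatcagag
Entries were found for 6 of 10 members (Acta2, Rgs5, Kcnj8, Abcc9, Vtn and Anpep), searched on both strands. Acta2 held 2 such matches, CCCTATATGG and CCTTGTTTGG, and the other 5 held 0. The form with 1 G or C was chosen after these promoters had been read, and 8.59% of 32851 promoters hold it. The strict form, with only A or T in the centre, was in 0 of these 6 and in 1.47% of all promoters. A match describes these letters only.

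Myh11 values without peptide were 7.49, 7.57, 7.57, 7.43 and 7.56 on the left and 7.65, 7.70, 7.64, 7.66 and 7.69 on the right. No left array reached the lowest right array, and the left was lower in 5 of 5 mice. Myh11 fell by 0.15 ± 0.04 log2 (SE; 95% confidence interval of left minus right -0.23 to -0.06; limma adjusted p = 0.0200), 1.11-fold. The call ended without right replicate 5 (adjusted p = 0.0517) and without both arrays of replicate 1 (0.0623), replicate 4 (0.0786) or replicate 5 (0.0733), and it lay just above the threshold without both arrays of replicate 2.

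With IDR1018, Myh11 values were 7.60, 7.56, 7.63, 7.57 and 7.60 on the left and 7.89, 7.68, 7.59, 7.75 and 7.65 on the right. The groups overlapped through right replicate 3. The difference was -0.12 ± 0.05 log2 (SE; limma adjusted p = 0.150), and it was -0.07 (adjusted p = 0.274) without right replicate 1.

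Acta2 values without peptide were 9.25, 9.53, 9.59, 9.20 and 9.41 on the left and 9.60, 9.61, 9.66, 9.49 and 9.67 on the right. The left was lower in 5 of 5 mice, although 2 left arrays exceeded the lowest right array. The difference was -0.21 ± 0.07 log2 (SE; 95% confidence interval -0.37 to -0.05; limma adjusted p = 0.0656). It was called with the replicate block (adjusted p = 0.0317), after median centring (0.0459), without dim probe sets (0.0437), with trend and robust moderation (0.0456) and without left replicate 2 (0.0499) or left replicate 3 (0.0257).

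With IDR1018, Acta2 was 9.44, 9.21, 9.45, 9.33 and 9.66 on the left and 10.23, 9.21, 9.69, 9.80 and 9.38 on the right. The right values enclosed the left ones, with an SD of 0.40, and the lowest array of both sides was at 9.21. The difference was -0.25 ± 0.16 log2 (SE; 95% confidence interval -0.59 to 0.10; limma adjusted p = 0.349). Without right replicate 1, the array at 10.23, it was -0.10 (adjusted p = 0.654). That array was also the highest of all 20 for Tagln (8.05), Myh11 (7.89), Vtn (11.52) and Higd1b (6.90).

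Tagln values without peptide were 7.64, 7.80, 7.83, 7.63 and 7.84 on the left and 7.58, 7.64, 7.73, 7.48 and 7.64 on the right. The groups overlapped, yet the left was higher in 5 of 5 mice. The difference was 0.13 ± 0.06 log2 (SE; 95% confidence interval 0.01 to 0.26; limma adjusted p = 0.141), and the fit with a replicate block called it (adjusted p = 0.0440). With IDR1018 the difference was -0.00 ± 0.08 (SE; adjusted p = 0.993), with right values between 7.54 and 8.05 and left values between 7.66 and 7.81. Without right replicate 1 it was 0.08 (adjusted p = 0.333).

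The replicate block raised the count of members called without peptide from 2 to 5, with Pdgfrb, Anpep, Acta2 and Myh11 lower and Tagln higher. With IDR1018 the block left the count at 2, Pdgfrb (limma adjusted p = 0.0340) and Anpep (adjusted p = 0.0286). Over all 28187 probe sets, the block called 4778 without peptide and 3383 with IDR1018, against 5088 and 4184 in the unpaired fit.

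**Figure D2:**
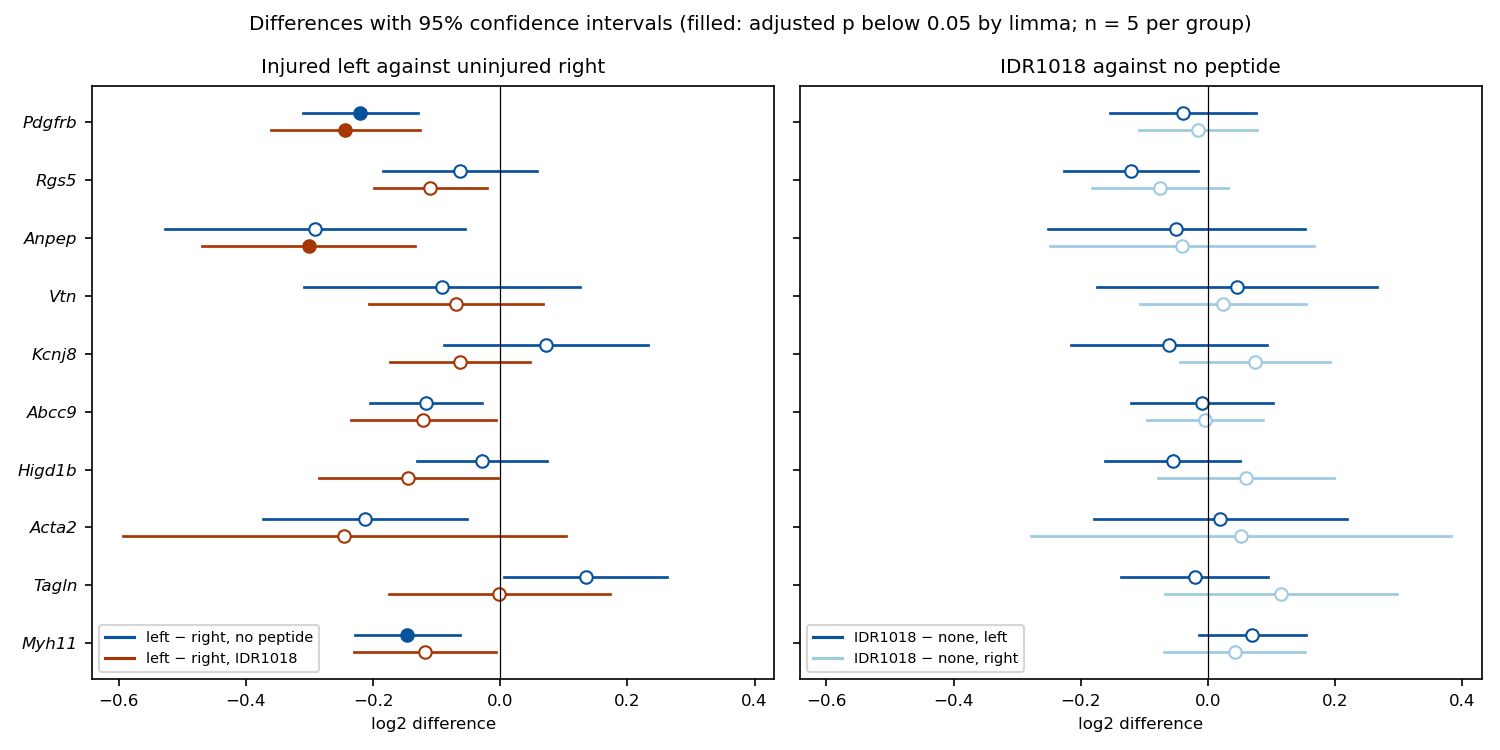
Differences of group means on the log2 scale (horizontal axes) for the 10 members, with 95% confidence intervals from limma. The left panel shows injured left minus uninjured right for each treatment and the right panel IDR1018 minus no peptide for each hemisphere. Filled points passed the test: Pdgfrb and Myh11 without peptide, Pdgfrb and Anpep with IDR1018, and none in the right panel.

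No member was called between mice with and without IDR1018, in either hemisphere. In the left hemisphere limma called 0 of 28187 probe sets (0%), and 4.35% had an unadjusted p below 0.05. Of the members, 1 of 10 had an unadjusted p below 0.05. It was Rgs5, lower with the peptide by a difference of -0.12 ± 0.05 log2 (SE; 95% confidence interval -0.23 to -0.02; limma adjusted p = 0.999). Left Rgs5 means were 10.98 ± 0.06 (SD, n = 5) with IDR1018 and 11.11 ± 0.09 (SD, n = 5) without, and the ranges overlapped, 10.91 to 11.05 against 11.02 to 11.26. The left difference was -0.04 ± 0.05 for Pdgfrb (95% confidence interval -0.15 to 0.08), -0.05 ± 0.09 for Anpep (-0.25 to 0.15) and 0.02 ± 0.09 for Acta2 (-0.18 to 0.22).

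In the right hemisphere 0 of 10 members were called, against 0.00355% of probe sets, which is 1. None of the members had an unadjusted p below 0.05, against 4.32% of probe sets. The difference was -0.07 ± 0.05 for Rgs5, -0.02 ± 0.04 for Pdgfrb (95% confidence interval -0.11 to 0.08) and 0.05 ± 0.15 for Acta2 (-0.28 to 0.38), which was -0.090 without right replicate 1 of the IDR1018 group. Over the 10 members the 95% confidence intervals reached from -0.25 to 0.27 on the left and from -0.28 to 0.38 on the right.

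The left-right difference was also compared between treatments. Limma called 0 of 10 members and 0 of all probe sets (0%), and 2.77% of probe sets but 0 members had an unadjusted p below 0.05. For Pdgfrb the difference of differences, IDR1018 minus no peptide, was -0.02 ± 0.07 log2 (SE; 95% confidence interval -0.16 to 0.12). For Tagln it was -0.14 ± 0.10 (SE; -0.35 to 0.08). The calls of Myh11 without peptide and of Anpep with IDR1018 are therefore not shown to differ between treatments.

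Listed pericyte markers other than the members were called in both directions between hemispheres. Of 20 measured genes on a list of further pericyte markers, 3 were called higher and 6 lower in the left hemisphere without peptide, and 2 higher and 5 lower with IDR1018. The list's median was -0.06 and -0.05. Over all genes, 10.5% were called higher and 10.1% lower without peptide, and 9.12% and 7.96% with IDR1018. The counts of this list and of those below are to be read beside these shares. Cspg4 (NG2 proteoglycan, also a marker of oligodendrocyte precursors) fell by 0.40 ± 0.03 log2 (SE; limma adjusted p = 3.76e-05) without peptide and by 0.32 ± 0.06 (adjusted p = 0.00399) with IDR1018. Atp13a5, a pericyte-enriched ATPase, fell by 0.51 ± 0.06 (adjusted p = 0.000498) and 0.43 ± 0.06 (adjusted p = 0.000575). For these genes the left and right values did not overlap in either treatment.

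Notch3, the Notch receptor of mural cells, fell by 0.23 ± 0.04 (SE; limma adjusted p = 0.00312) without peptide and by 0.23 ± 0.05 (adjusted p = 0.00903) with IDR1018. The latter call was lost without both arrays of replicate 2 (adjusted p = 0.0545). Ebf1, a transcription factor of pericytes, fell by 0.35 ± 0.07 and 0.27 ± 0.06, the latter a call lost without both arrays of replicate 2 or of replicate 3 (highest adjusted p = 0.0649). In the other direction, S1pr3, a sphingosine-1-phosphate receptor, rose by 0.94 ± 0.06 (adjusted p = 4.72e-06) and 0.98 ± 0.05 (adjusted p = 1.58e-06), and Mcam (CD146) rose by 0.36 ± 0.07 and 0.31 ± 0.04. Whole tissue does not show which cells gave these higher values. S1pr3, Mcam, Cspg4 and Atp13a5 were called in all 21 alternative settings in both treatments.

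Signals that recruit and hold mural cells included genes called in both directions. Of 19 measured genes on this list, 7 were called higher and 2 lower without peptide, and 9 higher and 2 lower with IDR1018, with a median of 0.15 in both. With the control probe set median of each array as a covariate, 4 and 6 were called higher. Over all probe sets, those called higher also fell with this covariate, from 2597 to 1537 without peptide and from 2191 to 1680 with IDR1018. Pdgfb, the ligand of Pdgfrb, rose by 0.37 ± 0.05 log2 (SE; limma adjusted p = 0.000831) and 0.30 ± 0.04 (adjusted p = 0.000911). Pdgfa, the ligand of the alpha receptor, rose by 0.19 ± 0.04 and 0.17 ± 0.04.

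Pdgfra, the alpha receptor, found on oligodendrocyte precursors and fibroblasts, fell by 0.45 ± 0.05 and 0.36 ± 0.05. Angpt2, an angiopoietin that loosens the contact of pericyte and endothelium, rose by 0.69 ± 0.12 and 0.55 ± 0.07. Tgfb1 rose by 0.43 ± 0.08 and 0.31 ± 0.04, although its call without peptide was lost with the control covariate (adjusted p = 0.0539). Notch1, an endothelial and neural Notch receptor, fell by 0.22 ± 0.05 and 0.37 ± 0.05.

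Genes related to single members gave the following counts, to be read beside the shares over all genes given above. Of 8 measured genes on a list of vitronectin partners and integrins, 3 were called higher and 1 lower in each treatment. Plaur, the urokinase receptor, was higher by 0.75 ± 0.09 log2 without peptide and by 0.53 ± 0.10 with IDR1018. Itga5 was higher by 0.57 ± 0.06 and 0.58 ± 0.05, and it is counted here although it is the fibronectin receptor subunit. Of 9 RGS genes of the R4 subfamily, to which Rgs5 belongs, 3 and 2 were called higher and 0 lower. Rgs1, known from leukocytes and activated microglia, rose by 1.41 ± 0.14 and 1.00 ± 0.12, and Rgs16 by 0.88 ± 0.05 and 0.73 ± 0.10. Rgs1 was left out of the fit without dim probe sets, as its mean over all arrays did not exceed the mean control median. Rgs18 and Rgs21, also counted here, were below the control median on all arrays. Of 7 aminopeptidases related to Anpep, 2 were called higher and 1 lower without peptide and 1 in each direction with IDR1018.

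Of 23 measured genes on a list of further contractile genes, 4 were called higher and 3 lower without peptide (17.4% and 13.0%). With IDR1018, 3 were called higher and 2 lower (13.0% and 8.70%). Over all genes these shares were 10.5% and 10.1% without peptide and 9.12% and 7.96% with IDR1018. The medians of the list were -0.04 and -0.06. Crip1, a small LIM protein that smooth muscle shares with immune cells, rose by 0.68 ± 0.06 log2 (SE; limma adjusted p = 3.21e-05) and 0.51 ± 0.05 (adjusted p = 0.00011). Itga8, an integrin of smooth muscle, rose by 0.31 ± 0.06 and 0.31 ± 0.05. Myl9, the regulatory light chain of smooth muscle myosin, fell by 0.34 ± 0.05 (adjusted p = 0.00113) without peptide. With IDR1018 it fell by 0.25 ± 0.07 (adjusted p = 0.0396), a call kept in 9 of 21 alternative settings. Cnn1 and Cald1, actin-binding proteins called higher without peptide by 0.15 and 0.16, kept their calls in 3 and 6 of 21. Srf (0.13 ± 0.07) and Myocd (-0.04 ± 0.04), the transcription factor and its partner named above, were not called without peptide. Neither was called with IDR1018. The remaining calls of this list with IDR1018 were Mrtfb (0.17) and Mylk (-0.18), kept in 8 and 7 of 21 alternative settings.

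**Figure D3:**
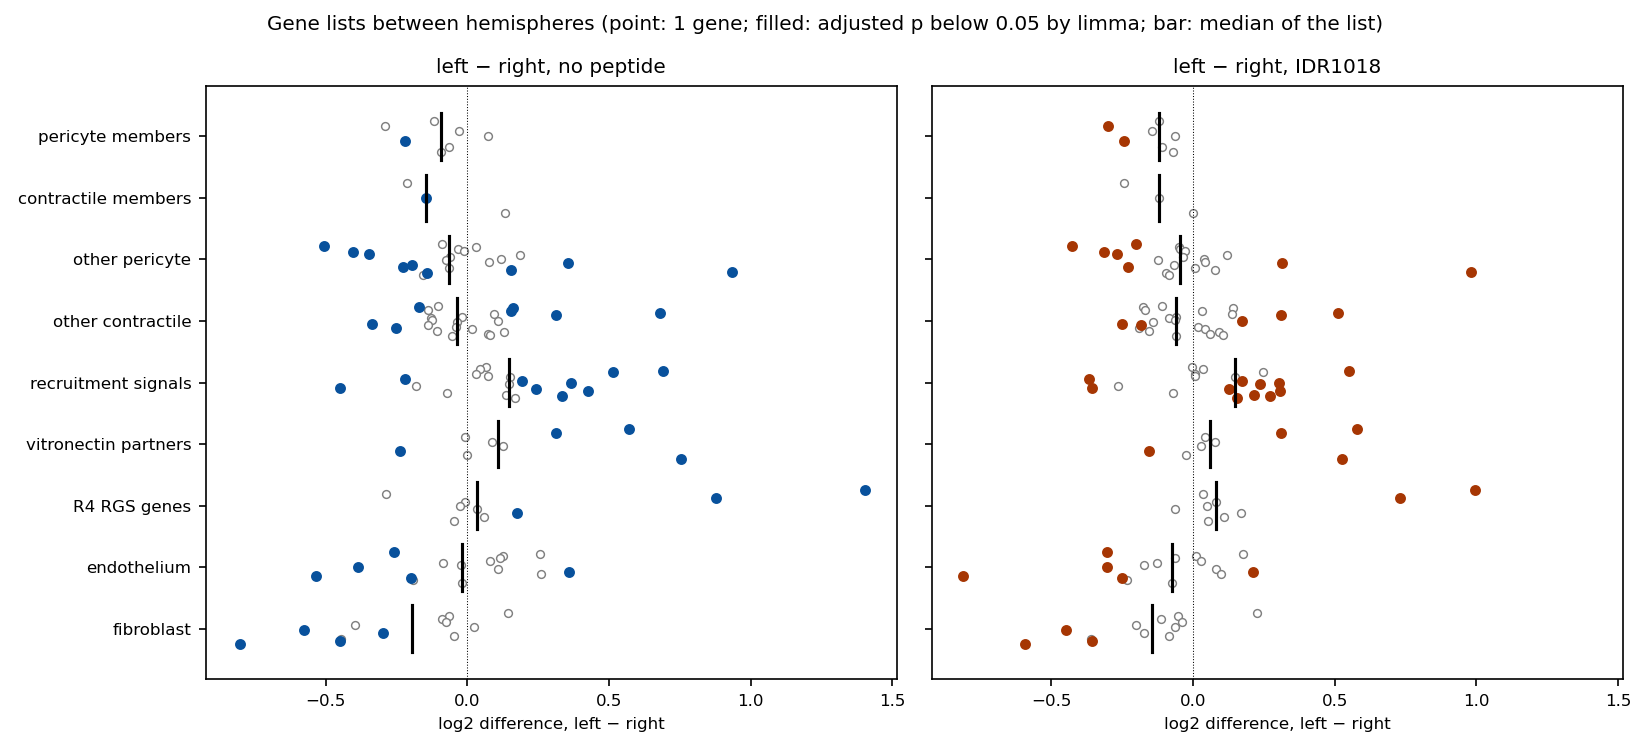
Left minus right differences on the log2 scale (horizontal axes) without peptide and with IDR1018 for the members and related gene lists (vertical axis). Each point is 1 gene, filled where the limma adjusted p was below 0.05, and the black bar is the median of the list. Called genes lie on both sides of 0 for other pericyte and contractile genes and for the recruitment signals.

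Markers of neighbouring cell types were read beside the members, and their counts beside the shares over all genes given above. Of 15 measured endothelial markers, 1 was called higher and 4 lower in each treatment, with medians of -0.02 and -0.08. Slco1a4, a transporter of the blood-brain barrier, fell by 0.53 and 0.81 log2, and Mfsd2a, a lipid transporter of that barrier, by 0.38 and 0.30, while Pecam1 (CD31) rose by 0.36 and 0.21, a call kept in 21 of 21 alternative settings without peptide and in 9 of 21 with IDR1018. Of 12 fibroblast and meningeal markers, 0 were called higher and 4 lower without peptide, and 0 higher and 3 lower with IDR1018, with medians of -0.19 and -0.14. Slc6a13, a transporter of leptomeningeal cells, fell by 0.80 ± 0.14 and 0.59 ± 0.12. Its calls and those of Pdgfra, also counted among the recruitment signals, were kept in 21 of 21 alternative settings in both treatments. The calls of Islr and Fmod without peptide were kept in 11 and 9 of 21, and that of Fmod with IDR1018 in 15 of 21.

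The mean log2 value of the 12 fibroblast markers ranged from 8.55 to 9.08 on the left and from 9.03 to 9.25 on the right without peptide. With IDR1018 it ranged from 8.63 to 9.09 and from 8.95 to 9.24. The part of these markers in the lower values of Pdgfrb, Anpep and Myh11 was not tested. Of 10 blood myeloid and border macrophage markers, 1 and 0 were called lower and 0 higher, and the neutrophil and monocyte markers S100a8, Retnlg, Ngp and Ccr2 were below the control median on all 20 arrays. Of 9 choroid plexus markers, 1 was called lower without peptide and 0 with IDR1018, and 0 higher.

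Of 5 microglial markers, 3 were called lower and 0 higher without peptide and 2 lower and 0 higher with IDR1018, with medians of -0.21 and -0.14. Tmem119, a surface marker of resting microglia, fell by 0.52 ± 0.08 log2 (SE; limma adjusted p = 0.00151) and 0.36 ± 0.07 (adjusted p = 0.00417). P2ry12, their ADP receptor, fell by 0.47 ± 0.06 and 0.39 ± 0.07. Both were called in 21 of 21 alternative settings in each treatment. The mean of the microglial markers ranged from 8.83 to 8.94 on the left and from 9.01 to 9.25 on the right without peptide, and with IDR1018 from 8.84 to 8.97 and from 8.95 to 9.11.

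Of 6 astrocyte markers, 1 and 2 were called higher and 0 lower, among them Gfap, the astrocytic filament protein (higher by 0.32 ± 0.05 and 0.24 ± 0.05). Of 6 neuronal markers, 1 was called lower in each treatment and 0 higher: Tubb3, neuronal tubulin, fell by 0.39 ± 0.05 and 0.30 ± 0.05. Of 2 measured red cell markers, 1 was called higher in each treatment, Alas2, the haem synthesis enzyme of red cell precursors (0.45 ± 0.09 and 0.24 ± 0.07, the latter called in 10 of 21 alternative settings). The part of these changes in the values of the members was not tested.

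The contractile members varied together from array to array. After subtraction of the group means, over 20 arrays that share 10 mice, Acta2 correlated with Tagln at r = 0.77 (Spearman rho 0.70) and with Myh11 at r = 0.74 (rho 0.73). Without the 2 arrays farthest from the median of the Acta2 deviations, these values were 0.72 and 0.61. Tagln and Myh11 gave r = 0.71, and 0.41 without the 2 arrays farthest from the median of the Tagln deviations. Pairs among the 7 pericyte members had a median r of 0.40, with a range from -0.06 to 0.67, and Vtn with Anpep was the highest. Pairs of a pericyte with a contractile member had a median of 0.34. These correlations are descriptions, without a test.

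Right replicate 1 with IDR1018 had a mean of 8.72 over the contractile members, against 8.19 to 8.39 on the other 4 arrays of its group. Its mean over the pericyte members was 9.36, against 9.24 to 9.35 on those 4. Its mean over the further contractile genes was 8.36, against 8.23 to 8.32 on those 4, and its fibroblast markers were within the range of other right arrays at 9.24. Left replicate 1 without peptide, lowest for Vtn and Anpep, had the lowest mean of the pericyte members of all 20 arrays, 9.04 against 9.14 to 9.27 on the other 4 of its group. It also had the lowest fibroblast marker mean of the 20, 8.55 against 8.71 to 9.08 on those 4. Without that array, the left minus right Pdgfrb difference without peptide stayed called, as stated above for all 21 settings.

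**Figure D4:**
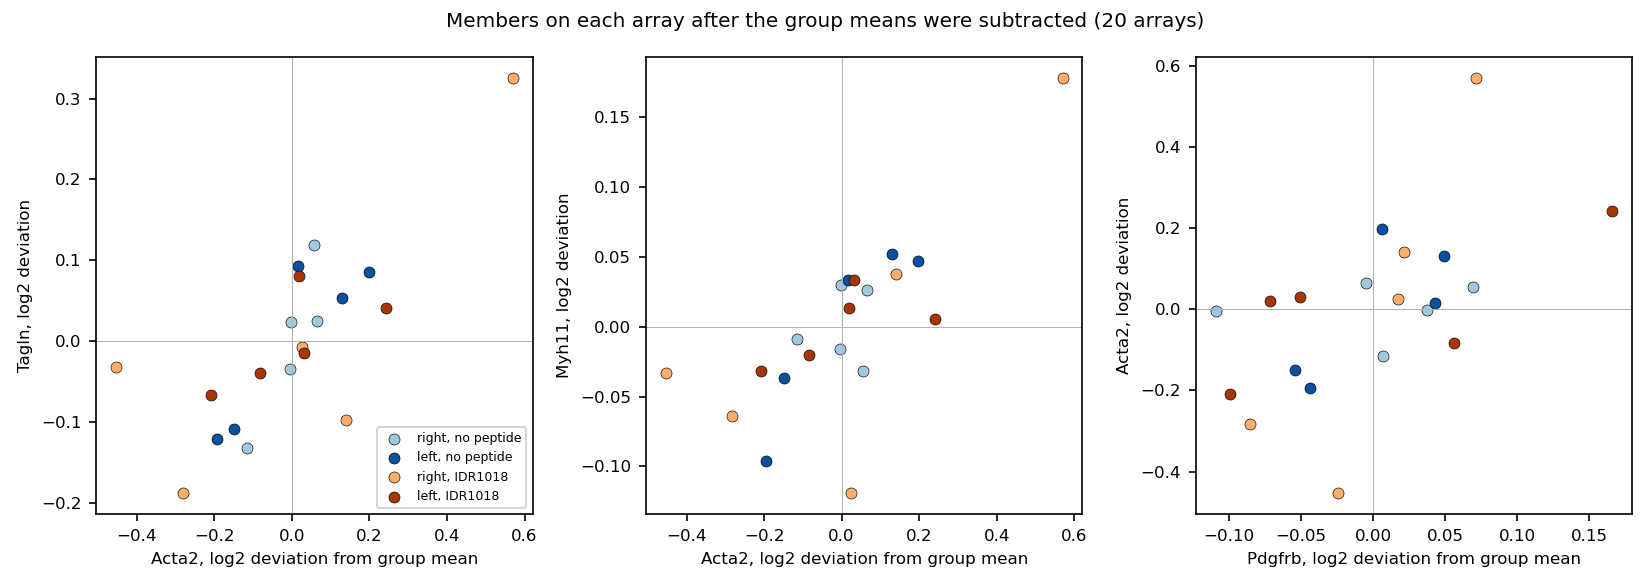
Deviation of each array from its group mean, in log2 units, for Tagln against Acta2, Myh11 against Acta2 and Acta2 against Pdgfrb. Each of the 20 points is 1 array, coloured by group. The array at the upper right of the first 2 panels is right replicate 1 with IDR1018.

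The genes outside the members whose deviations followed the mean of the 7 pericyte members most closely, among 19927 genes, were Cdh5 (r = 0.88), Pcolce (0.85), Ramp2 (0.85), Pltp (0.84) and Fn1 (0.84). Cdh5 is the cadherin of endothelial junctions, Ramp2 a receptor component of endothelium, Pcolce an enhancer of collagen processing, and Fn1 fibronectin. Without the 2 arrays farthest from the median, r stayed between 0.74 and 0.83. For the mean of the contractile members they were Fbln5 (0.88), Eln (0.86), Tas2r102 (0.83), Wtip (0.82) and D830039M14Rik (0.81). Fbln5 and Eln encode fibulin-5 and elastin of the elastic fibres of arteries. Tas2r102 was above the control median on 0 of 20 arrays. Without the 2 farthest arrays, r for these genes lay between 0.59 and 0.73.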

How the data were processed

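The 20 arrays came from the left and right hemispheres of 10 mice, in 4 groups of 5 taken from the labels. The deposited values are log2 summaries, which the authors made by RMA in affy 1.38.1, per the submitters' processing notes. They were used without further scaling. The chip definition is not given in the sources used here. Of 34760 probe sets, 6573 whose identifiers precede the first annotated one were taken as controls and left out of tests, so 28187 were tested. Of all probe sets 21640 carry 1 gene symbol in the platform annotation.

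Limma 3.58.1 (lmFit and eBayes, under R 4.3.3) was run for each comparison on the groups compared, without a replicate block, two-sided, with Benjamini-Hochberg adjustment over all tested probe sets and a threshold of 0.05. The script was tested on simulated data. The number of arrays limits the precision. Both arrays with 1 replicate number carry 1 specimen number, so the numbers pair hemispheres. Their deviations from group means correlated at 0.0357 to 0.254 over the 10 mice. Replicate numbers do not pair mice between treatments. The labels do not say that the mice were independent in litter or surgery.

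The members and gene lists were chosen with earlier results of these data known. Named are all 10 members, up to 4 genes per direction and comparison with the smallest p among the called genes of each list (where none was called, up to 2 with the smallest p, as for Abcc8, Edn1, Kdr and Mustn1), and the 5 genes most like each member mean. Srf and Myocd, for background, and genes below the control median were named outside that rule, after their values were seen. Alternatives were the replicate block, all groups in the fit, median centring, the control median as a covariate, omission of dim probe sets, trend and robust moderation, and omission of each array or mouse. For IDR1018 against no peptide within a hemisphere, the block joined different mice that share a number, so it is no pairing there. Those fits are counted among the alternatives. Promoters are RefSeq, assembly GRCm38.p6.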

Additional observations from a re-analysis of the deposited data

Results flagged for a closer look

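Each of the 40 sets of 5 values (10 genes in 4 groups) was checked for an array standing apart from the other 4 by Dixon's ratio of gap to range, and 2 were above the critical value. Chance alone gives about 1 in 20. Abcc9 was lowest in left replicate 4 without peptide, at 8.61, with the next array at 8.71 and a ratio of 0.713. Anpep was highest in left replicate 5 with IDR1018, at 8.34, with the next array at 8.04 and a ratio of 0.738.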

How the results depend on the processing

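Of 1085 values recomputed for single members, 977 kept direction and side of the threshold, 15 became calls and 11 lost one. The sign changed in 82, with 0 of these called before or after. Of the 82, 76 came from leaving out an array or mouse. Left minus right without peptide then ranged from -0.055 to 0.0057 for Higd1b and -0.16 to 0.0098 for Vtn. Left minus right with IDR1018 then ranged from -0.059 to 0.080 for Tagln. IDR1018 minus none on the left then ranged from -0.040 to 0.024 for Abcc9, -0.041 to 0.072 for Acta2, -0.13 to 0.0015 for Anpep, -0.051 to 0.0026 for Tagln and -0.055 to 0.097 for Vtn. IDR1018 minus none on the right then ranged from -0.031 to 0.013 for Abcc9, -0.090 to 0.17 for Acta2, -0.10 to 0.020 for Anpep, -0.0023 to 0.072 for Myh11, -0.043 to 0.0060 for Pdgfrb and -0.015 to 0.062 for Vtn. The difference of differences then ranged from -0.039 to 0.056 for Abcc9, -0.16 to 0.11 for Acta2, -0.086 to 0.060 for Anpep, -0.011 to 0.072 for Myh11, -0.086 to 0.012 for Pdgfrb, -0.079 to 0.020 for Rgs5 and -0.079 to 0.092 for Vtn. With the control covariate, signs changed for Kcnj8 left minus right without peptide (-0.015), Tagln left minus right with IDR1018 (0.015), Pdgfrb (0.0023) and Abcc9 (0.0052) between treatments on the right, and Anpep in the difference of differences (0.018). Median centring changed the sign of that difference for Abcc9 (0.0022). Without peptide the count of members called rose from 2 to 5 with the replicate block, and to 4 after median centring and to 4 without dim probe sets. Over all probe sets these settings called 4778, 5175 and 5770, against 5088 in the main fit. Fewer probe sets were tested without the dim ones. With 1 array or 1 mouse left out, the count of members called without peptide was 1 to 4. With IDR1018 it was 0 to 2 with 1 array or mouse left out. Counts for the peptide comparisons and the difference of differences stayed at 0. The causes were not tested. Over all probe sets, calls without peptide went from 5088 to 2929 with the control covariate, and to 2698 without both arrays of replicate 5. With IDR1018 they went from 4184 to 2323 without both arrays of replicate 2. Median centring shifted the split without peptide from 2597 higher and 2491 lower to 2171 and 3004. An alternative probe set could not be tried, as each member has 1. The block changed no other member call.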

Other observations

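Among the related genes, none was called between mice with and without IDR1018. In the right hemisphere Edn1, encoding the vasoconstrictor endothelin-1, differed by 0.41 ± 0.06 log2 (SE; limma adjusted p = 0.266), with a mean of 8.38 with the peptide and 7.98 without. Kdr, a receptor for VEGF on endothelium, differed by -0.46 ± 0.07 (adjusted p = 0.675) in the left hemisphere and by -0.31 ± 0.07 (adjusted p = 0.804) in the right. Mustn1, a muscle-associated nuclear protein, differed by 0.33 ± 0.07 in the right hemisphere (adjusted p = 0.719) and by 0.23 ± 0.08 in the left (adjusted p = 0.999).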
